A study of Mus musculus with 4 samples.

Results

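Inflammasome and pyroptosis genes were read in the skin of mice. The set held 10 genes, chosen by symbol from the 25571 genes of the deposited table: the sensors Nlrp3, Nlrp1b, Nlrc4, Aim2 and Mefv, the adaptor Pycard, the caspases Casp1 and Casp4, and the gasdermins Gsdmd and Gsdma. All 10 were found, each once. The study, on hair regrowth per its title, has 4 groups of skin with 1 RNA library each. PRP-MNs is skin given microneedles (MNs, arrays of fine needles that pierce the skin) with platelet-rich plasma (PRP, the platelet concentrate of blood), PRP and MNs are skin given either one, and NC was used as the reference. The labels do not spell out NC. Strain, age, sex, the time of harvest, the source of the plasma and the number of animals behind a library are not given in the sources used here.

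An inflammasome is a protein platform that a sensor builds in the cytosol after it meets a microbial product, foreign DNA or cell damage. Most sensors recruit the adaptor ASC, encoded by Pycard, which draws in caspase 1. The caspase cuts the precursors of interleukin 1 beta and interleukin 18 and opens gasdermin D, which forms pores in the membrane and kills the cell by pyroptosis. Macrophages, monocytes and neutrophils are the best known cells of this pathway, and keratinocytes carry parts of it, among them gasdermin A.

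Values are FPKM, fragment counts scaled to transcript length and to the size of the library. Each difference is log2(FPKM + 1) of one library minus the other, a scale that understates differences of low genes, and a difference of at least 1 on it is called 2-fold. A gene was measured in a comparison where it reached 1 FPKM in either library. With 1 library per group there is no error between animals and no test, and every difference is one between these libraries. The depth, estimated from the steps between low values, was 15.9 to 19.3 M fragments. Intervals given for ratios are exact 95% binomial (Clopper-Pearson) intervals of estimated fragments, and they cover counting error only. Keratinocyte markers (Krt5, Krt14, Krt1 and Krt10) were present in every library, as the label skin calls for, with summed levels of the 5 basal markers from 2874 FPKM in PRP-MNs to 6595 FPKM in NC.

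The 10 genes fell into opposite directions. The 5 sensors, both caspases and Gsdmd were highest in PRP-MNs and lowest in NC, while Pycard and Gsdma were highest in NC and lowest in PRP-MNs. In PRP-MNs against NC, 6 of 9 measured members were at least 2-fold higher (17.6% of all 13981 genes tested) and 2 were at least 2-fold lower (11.5% of all genes). Their median difference was 1.77, against 0.14 over all genes. Nlrp3, Nlrc4 and Mefv passed the filter only through PRP-MNs and so had to be higher there. Nlrp1b was below 1 FPKM in every library and was not measured. In the order of the libraries, PRP and MNs always lay between PRP-MNs and NC: MNs was above PRP in 5 of the 8 genes highest in PRP-MNs and below it in 3, and PRP was above MNs in both genes highest in NC.

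**Figure D1:**
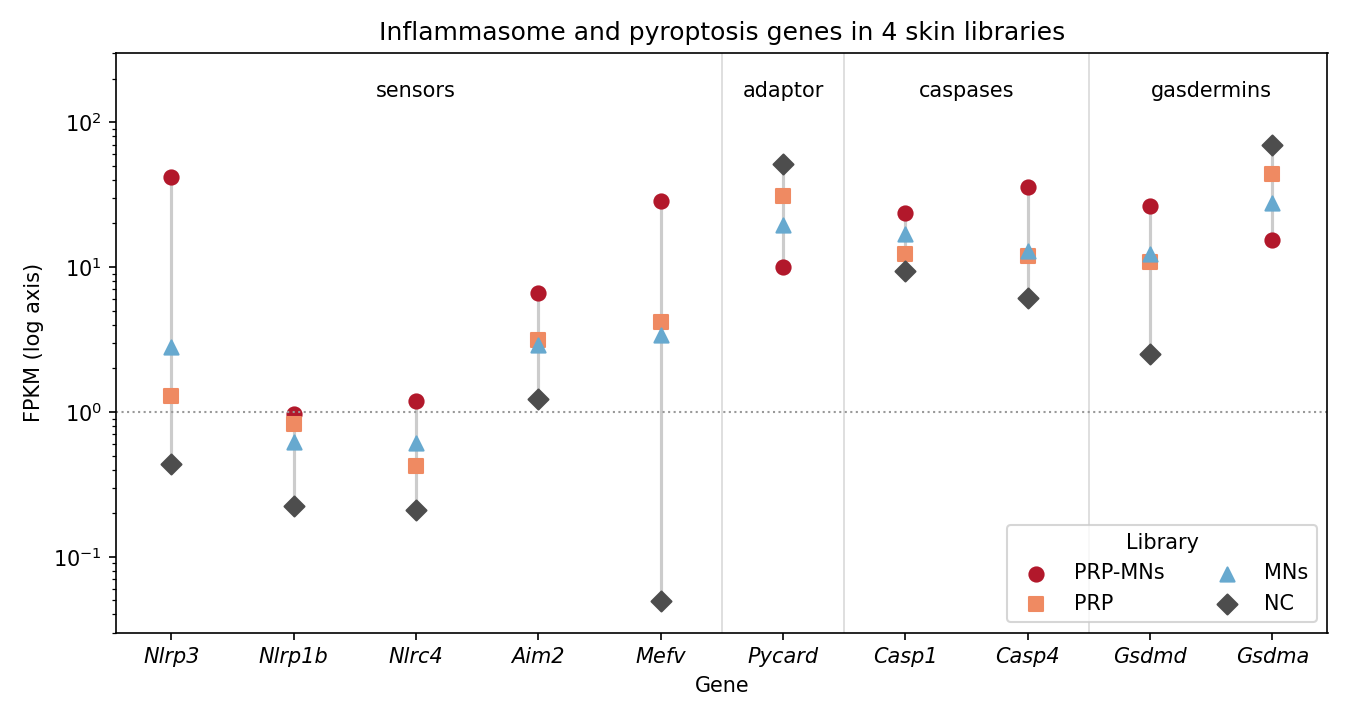
FPKM of the 10 genes (log axis, 1 point per library, grey line from lowest to highest, dotted line at 1 FPKM). NC is lowest in 8 genes and highest in Pycard and Gsdma, and the widest spans are those of Mefv (0.0498 to 28.7 FPKM) and Nlrp3 (0.436 to 41.5 FPKM).

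Promoters were read because most of the members stood higher in the same library while Pycard stood lower. RefSeq windows on GRCm38.p6, from 250 bases before to 50 after a start site, were found for 8 of the 10 members (11 windows), and Gsdmd and Gsdma had none. The windows were searched on both strands for the interferon-stimulated response element (GAAA, NN and GAAA in a row, in 3.45% of all 32544 distinct windows), the gamma-activated site TTCNNNGAA (8.33%) and the NF-kappaB consensus (8.49%). The overlapping windows of Casp4 and the upstream window of Nlrp3 held the NF-kappaB consensus, and the other window of Nlrp3 did not. No member's window held either of the other motifs. The following windows are in lower case, 5′ to 3′ in the direction of the gene with NF-kappaB matches in capitals: Casp4 (chr9:5308599-5308898, plus strand), the upstream window of Nlrp3 (chr11:59541319-59541618, plus strand), Mefv (chr16:3718075-3718374, minus strand), whose ratio was the largest of the set, and Pycard (chr7:127993818-127994117, minus strand), which went the other way.
Casp4: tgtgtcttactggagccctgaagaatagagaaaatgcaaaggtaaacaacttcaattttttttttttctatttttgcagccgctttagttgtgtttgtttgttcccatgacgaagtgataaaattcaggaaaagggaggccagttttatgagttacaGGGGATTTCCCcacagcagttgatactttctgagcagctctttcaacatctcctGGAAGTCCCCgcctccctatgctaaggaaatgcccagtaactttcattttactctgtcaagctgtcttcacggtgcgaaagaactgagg
Nlrp3: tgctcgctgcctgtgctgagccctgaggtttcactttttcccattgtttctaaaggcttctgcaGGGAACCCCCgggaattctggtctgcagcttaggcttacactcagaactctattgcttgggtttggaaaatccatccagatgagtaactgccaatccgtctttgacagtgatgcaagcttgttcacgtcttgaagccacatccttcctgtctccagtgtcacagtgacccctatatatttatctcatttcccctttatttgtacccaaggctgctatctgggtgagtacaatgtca
Mefv: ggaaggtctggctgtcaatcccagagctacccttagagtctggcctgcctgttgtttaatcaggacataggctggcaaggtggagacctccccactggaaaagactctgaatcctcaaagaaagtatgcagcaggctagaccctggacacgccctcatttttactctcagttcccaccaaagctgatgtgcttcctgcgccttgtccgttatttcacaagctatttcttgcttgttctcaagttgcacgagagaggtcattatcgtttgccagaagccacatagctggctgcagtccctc
Pycard: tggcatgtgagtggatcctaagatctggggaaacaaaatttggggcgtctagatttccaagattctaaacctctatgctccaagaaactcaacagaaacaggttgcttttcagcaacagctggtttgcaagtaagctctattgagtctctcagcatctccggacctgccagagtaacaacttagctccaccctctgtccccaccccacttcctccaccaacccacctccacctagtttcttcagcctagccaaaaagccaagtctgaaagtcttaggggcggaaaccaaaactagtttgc
In Casp4, overlapping matches ran from -93 to -83 and a further one from -39 to -30, with the start site counted as 0. In Nlrp3 the match ran from -186 to -177 on both strands. A match describes letters only.

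Nlrp3 (ENSMUSG00000032691, chromosome 11 from 59541568 to 59566956 on GRCm38) encodes the sensor that answers potassium efflux, crystals and other signs of damage, and that myeloid cells make after a priming signal. It read 0.436 FPKM in NC, 1.28 in PRP, 2.81 in MNs and 41.5 in PRP-MNs. PRP-MNs thus stood far above the other libraries. The difference of PRP-MNs was 4.89 from NC (ratio 95.2, interval 67.9 to 138), 4.22 from PRP (ratio 32.4, interval 26 to 40.9) and 3.48 from MNs (ratio 14.8, interval 12.8 to 17.1). Of all genes tested between PRP-MNs and NC, 99.5% had a smaller difference than Nlrp3. MNs was above NC by 1.41 (ratio 6.44, interval 4.46 to 9.54), and PRP was above NC by 0.67, short of 2-fold on the log2(FPKM + 1) scale though its FPKM ratio was 2.94 (interval 1.94 to 4.51).

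Mefv (ENSMUSG00000022534, chromosome 16 from 3707218 to 3718097) encodes pyrin, an inflammasome sensor found in granulocytes and monocytes. It stood at 0.0498 FPKM in NC, against 4.17 with PRP, 3.40 with MNs and 28.7 with PRP-MNs. The 3 treated libraries were all above NC, and PRP-MNs was above both others by 2.52 and 2.75. The NC value corresponded to about 3 fragments (exact Poisson interval 0.619 to 8.77), so its ratios carry wide intervals. PRP-MNs over NC was 576 (196 to 2780), PRP over NC 83.8 (28.2 to 408) and MNs over NC 68.2 (22.8 to 331).

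Aim2 (ENSMUSG00000037860, chromosome 1 from 173350879 to 173466040) encodes the inflammasome sensor of double-stranded DNA in the cytosol. It had 1.23 FPKM in NC, 2.89 in MNs, 3.15 in PRP and 6.62 in PRP-MNs. The difference was 1.77 for PRP-MNs, 0.89 for PRP and 0.80 for MNs against NC, so that PRP-MNs alone passed 2-fold. With a pseudocount of 0.1 in place of 1, PRP (1.29) and MNs (1.17) passed it too. PRP and MNs could not be told apart by counting error (ratio 1.09, interval 0.856 to 1.37).

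The remaining sensors were near the limit of the filter. Nlrc4 (ENSMUSG00000039193, chromosome 17 from 74425438 to 74459142), the partner of the NAIP receptors for flagellin and bacterial secretion needles, read 0.211 FPKM in NC, 0.426 in PRP, 0.614 in MNs and 1.19 in PRP-MNs. Its PRP-MNs to NC ratio was 5.67 (interval 3.48 to 9.93), from about 97 and 19 fragments, and its difference on the log2(FPKM + 1) scale was 0.86. Nlrp1b (ENSMUSG00000070390, chromosome 11 from 71153102 to 71230733), the sensor cut by anthrax lethal factor, had 0.225, 0.821, 0.620 and 0.969 FPKM in the same order. NC was the lowest library for both, and the levels in PRP-MNs and PRP of Nlrp1b did not differ beyond counting error (ratio 1.18, interval 0.826 to 1.71). Nlrp1b has the close relative Nlrp1a (1.41 FPKM in PRP-MNs, 0.0801 FPKM in NC), and fragments may be split between them.

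Pycard (ENSMUSG00000030793, chromosome 7 from 127989708 to 127993867), the gene of the adaptor ASC, stood at 51.6 FPKM in NC, against 31.1 with PRP, 19.6 with MNs and 9.95 with PRP-MNs. Every treated library was below NC, and PRP-MNs was lowest. The difference from NC was −2.27 for PRP-MNs, −0.72 for PRP and −1.35 for MNs, and 2.45% of all genes tested between PRP-MNs and NC had a lower one. NC over PRP-MNs was 5.19-fold. Within a library, Nlrp3 was at 0.00845 times the level of Pycard in NC and 4.17 times in PRP-MNs, as the genes differed in opposite directions. An annotated transcript on the other strand (Gm45205) shares 485 exon bases with Pycard, and whether the counting used strand is not given in the sources used here.

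Casp1 (ENSMUSG00000025888, chromosome 9 from 5298517 to 5307265) is the protease of the inflammasome, and its ratio of highest to lowest FPKM was the smallest of the members (2.52), though on log2(FPKM + 1) Nlrp1b and Nlrc4 differed less. It had 9.33 FPKM in NC, 16.8 in MNs, 12.3 in PRP and 23.5 in PRP-MNs. PRP-MNs was above NC by 1.25 (interval of the ratio 2.18 to 2.92), while PRP and MNs were above it by 0.37 and 0.79, short of 2-fold. Casp4 (ENSMUSG00000033538, chromosome 9 from 5308828 to 5336783) lies next to Casp1 and encodes caspase 11, which binds bacterial lipopolysaccharide in the cytosol and cuts gasdermin D without a platform. Casp4 read 6.11 FPKM in NC, 11.9 in PRP, 13.0 in MNs and 35.8 in PRP-MNs. PRP-MNs stood apart from the others, by 2.37 from NC (ratio 5.87, interval 5.08 to 6.79), 1.52 from PRP and 1.40 from MNs. Casp4 was at 0.655 times the level of Casp1 in NC, 0.773 in MNs, 0.964 in PRP and 1.52 in PRP-MNs. MNs exceeded NC in Casp4 by 0.98, and by 1.16 once every library was scaled to the same FPKM sum, which is past 2-fold.

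Gsdmd (ENSMUSG00000022575, chromosome 15 from 75862327 to 75867408), the pore-forming gasdermin of pyroptosis, stood at 2.50 FPKM in NC, against 10.8 with PRP, 12.3 with MNs and 26.5 with PRP-MNs. All treated libraries were at least 2-fold above NC, by 2.97 in PRP-MNs (ratio 10.6, interval 8.45 to 13.3), 1.76 in PRP and 1.92 in MNs. PRP and MNs were level within counting error (ratio 0.883, interval 0.760 to 1.03), and PRP-MNs was above PRP by 1.21 and above MNs by 1.05. Gsdma (ENSMUSG00000017204, chromosome 11 from 98664351 to 98677708) encodes gasdermin A, which is made in skin epithelium and is opened by a protease of group A streptococci. Gsdma had 69.9 FPKM in NC, 27.8 in MNs, 43.9 in PRP and 15.5 in PRP-MNs. It was lower in every treated library, by −2.11, −0.66 and −1.30 in PRP-MNs, PRP and MNs. The gasdermin of higher level therefore differed between libraries: Gsdma was at 27.9 times Gsdmd in NC, 4.05 times in PRP, 2.26 times in MNs and 0.585 times in PRP-MNs.

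**Figure D2:**
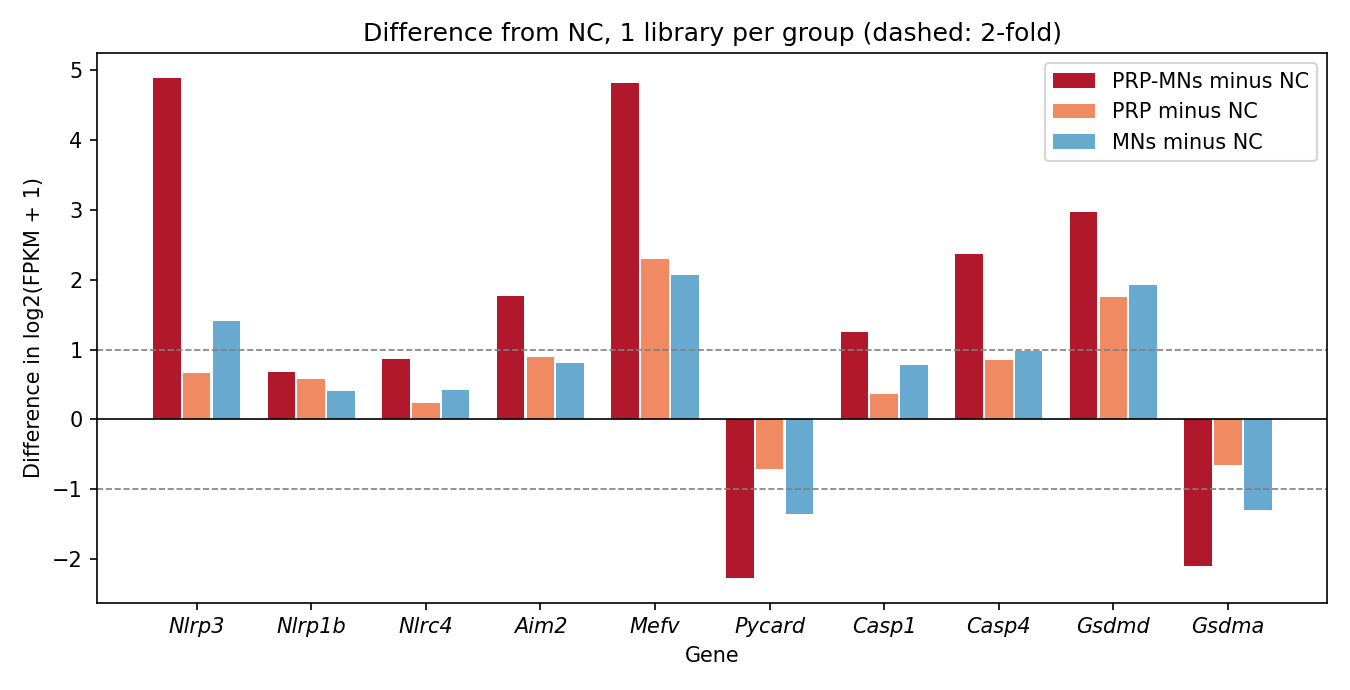
Difference in log2(FPKM + 1) of each treated library from NC for the 10 genes (dashed lines at 2-fold). PRP-MNs has the longest bar in every gene, from −2.27 in Pycard to 4.89 in Nlrp3, and Mefv and Gsdmd pass 2-fold in all 3 comparisons.

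The comparisons with NC all share the NC library. In PRP against NC, 2 of 8 measured members were at least 2-fold higher, Mefv and Gsdmd (7.78% of 13533 genes), and none was at least 2-fold lower (1.46% of genes), with a median of 0.76 against 0.04 over all genes. Mefv and Nlrp3 passed the filter only through PRP and had to be higher there, and of the 6 members at 1 FPKM in both libraries Gsdmd alone was 2-fold higher. With a pseudocount of 0.1 the count of higher members was 4. In MNs against NC, 3 of 8 were higher, Nlrp3, Mefv and Gsdmd (15.7% of 13925 genes), and 2 were lower, Pycard and Gsdma (7.12%), with a median of 0.89 against 0.16. Mefv and Nlrp3 passed the filter only through MNs, and of the 6 members at 1 FPKM in both libraries Gsdmd alone was 2-fold higher. With a pseudocount of 0.1, 5 were higher, and with a filter at 5 FPKM only Gsdmd was.

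NC is absent from the next comparisons. In PRP-MNs against PRP, 4 of 9 measured members were at least 2-fold higher, Nlrp3, Mefv, Casp4 and Gsdmd (9.54% of 13861 genes), and Pycard and Gsdma were lower (7.5%), by −1.55 and −1.45. In PRP-MNs against MNs, 4 of 9 were higher (7.16% of 13933 genes), again Nlrp3, Mefv, Casp4 and Gsdmd, and none was lower (7.39%), with Pycard at −0.91 and Gsdma at −0.80. These comparisons share the PRP-MNs library. In PRP against MNs no measured member was at least 2-fold higher (4.62% of 13838 genes) or lower (5.99%), and the differences ran from −0.74 in Nlrp3 to 0.64 in Gsdma. The ratio of Nlrp3 between PRP and MNs was 0.456 (interval 0.349 to 0.591). Of all 60 ratios over the 6 comparisons, 6 had a counting interval that held 1, and 5 of these were between PRP and MNs.

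The layout with and without each treatment allows the difference of PRP-MNs from NC to be set against the sum of the differences of PRP and of MNs. Nlrp3 exceeded that sum by 2.81 (4.89 against 2.08), and by 2.47 with a pseudocount of 0.1. It was the only member 1 or more above the sum, as were 4.74% of 14475 genes, and no member was 1 or more below it (10.9% of genes). The other members lay between −0.71 in Gsdmd and 0.54 in Casp4. The value of Mefv depended on the scale, at 0.45 with a pseudocount of 1 and −1.79 with 0.1, with about 3 fragments in NC.

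Cell type markers differed between the same libraries. All 10 markers of leukocytes in general were highest in PRP-MNs and lowest in NC, with summed levels of 130.3 FPKM in NC, 515 in PRP, 532 in MNs and 1647 in PRP-MNs. All 10 monocyte and macrophage markers were lowest in NC, with sums of 264, 1052, 1038 and 2764 FPKM in the same order. Neutrophil markers summed to 235, 406, 181 and 1006 FPKM in NC, PRP, MNs and PRP-MNs. Mpo was at 0 in all but MNs (0.0512 FPKM) and Ly6g was listed at 0 in PRP and NC. Of these 10 markers, 6 were highest in PRP-MNs, with S100a9 at 626 FPKM and S100a8 at 205 FPKM there. Camp (0.149 against 0.163 FPKM) and Ltf (0.169 against 0.549 FPKM) were low throughout and lower in PRP-MNs than in NC. The highest neutrophil markers, S100a8 (41.1 against 62.8 FPKM) and S100a9 (106 against 163 FPKM), were lower in MNs than in NC. Csf3r (15.9 against 0.736 FPKM), Cxcr2 (11.5 against 6.58 FPKM) and Retnlg (5.15 against 1.15 FPKM) were higher in MNs. The other neutrophil markers were below 1 FPKM in MNs and NC. All 8 markers of differentiated keratinocytes were highest in NC and lowest in PRP-MNs, with sums of 19426, 10151, 3711 and 1739 FPKM in NC, PRP, MNs and PRP-MNs. All 5 basal keratinocyte markers were lowest in PRP-MNs. Of these, 3 were at least 2-fold below NC there, and Itga6 was level (61.2 against 61.3 FPKM). In bulk skin, fewer cells of a type and less RNA per cell cannot be told apart, and the part of these cells in the values of the members was not tested.

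Set beside those markers, the members did not move as one. Between PRP-MNs and NC the FPKM ratios of the 10 leukocyte markers ran from 8.46 to 24.8, with a median of 12.3. The ratios of Nlrp3 (95.2) and Mefv (576) were above all 10 of them, that of Gsdmd (10.6) was above 4 and below 6, and those of Nlrc4, Nlrp1b, Aim2, Casp1 and Casp4 (2.52 to 5.87) were below all 10. Single myeloid markers reached further: the ratio of Nlrp3 was below that of 2 of 10 monocyte and macrophage markers and of 1 of 8 neutrophil markers above 0 in NC, and that of Mefv was above all of them. In PRP against NC the leukocyte ratios ran from 3.01 to 5.26. There Nlrp3 (2.94) was below all 10 and Mefv (83.8) above all 10. In MNs against NC they ran from 1.99 to 9.69, and Nlrp3 (6.44) was above 9 of 10. Pycard (0.193) and Gsdma (0.221) lay between the keratinocyte lists in PRP-MNs over NC: each was below all 5 basal markers (0.293 to 0.998) and above 7 of 8 differentiated ones (0.0535 to 0.26).

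**Figure D3:**
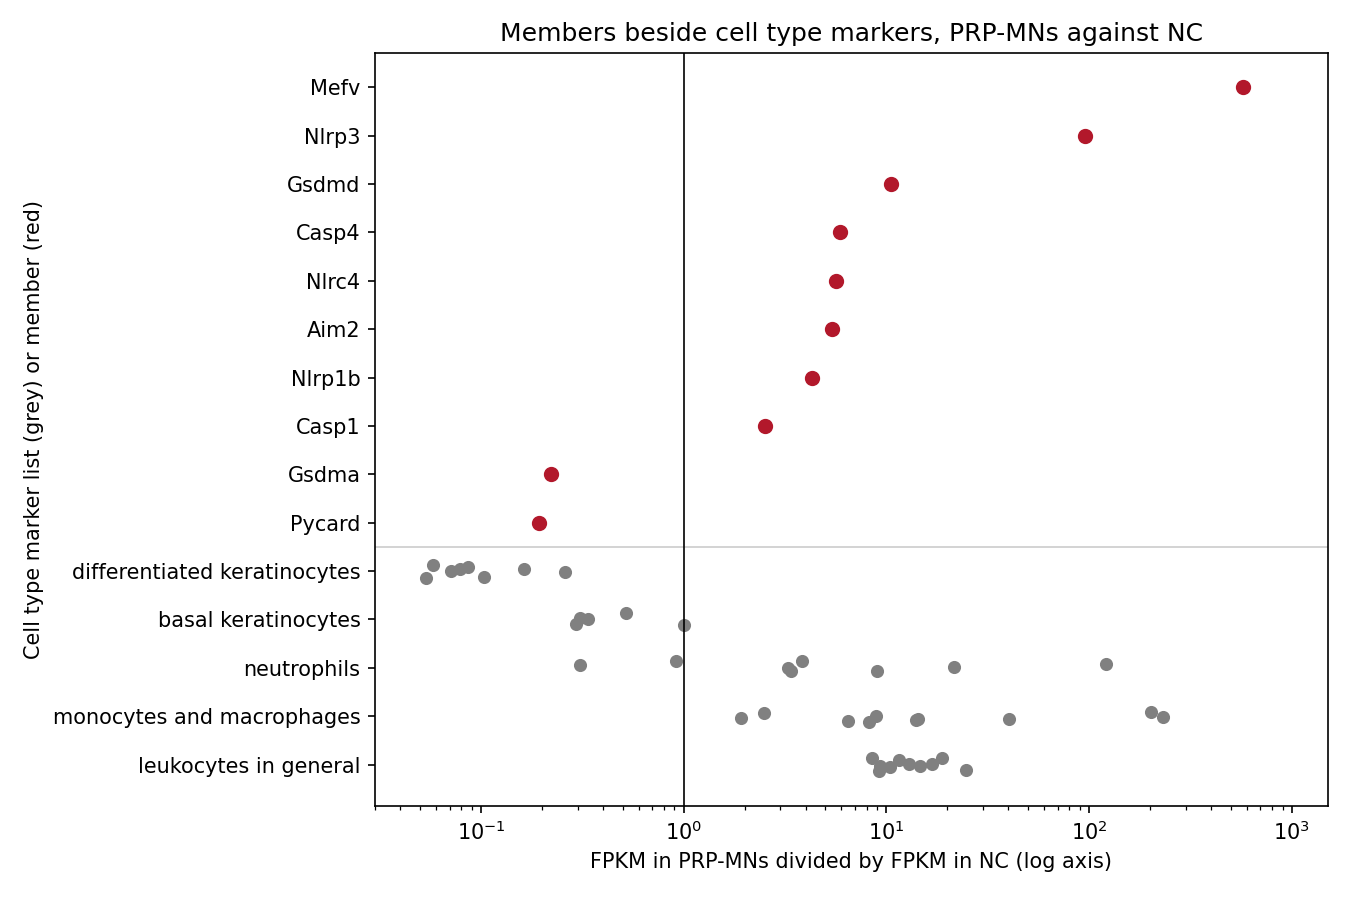
FPKM in PRP-MNs divided by FPKM in NC (log axis) for the 10 members (red) and for markers of 5 cell type lists (grey, markers at 0 in either library left out). Mefv and Nlrp3 lie to the right of all leukocyte markers, Casp1, Nlrp1b, Aim2, Nlrc4 and Casp4 between them and 1, and Pycard and Gsdma among the keratinocyte markers.

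The rest of the pathway was read in 9 lists of 91 genes, of which 87 were found. In PRP-MNs against NC, 46 of 79 measured genes stood 2-fold or more higher and 6 lower, beside 17.6% and 11.5% of all genes. Among the higher ones, Nlrp1a, Nlrp12, Naip2, Naip5, Naip6, Ifi213, Ifi208 and Gbp5 were below 1 FPKM in NC and so had to be higher. Gsdmc2 was below 1 FPKM in PRP-MNs and had to be lower. Genes below 1 FPKM in NC had to be higher in the other comparisons with NC too, where they were measured. PRP against NC gave 21 higher and 2 lower of 75 (7.78% and 1.46% of all genes), and MNs against NC gave 26 higher and 11 lower of 75 (15.7% and 7.12%). Values of listed genes below are in the order PRP-MNs, PRP, MNs and NC.

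Among other sensors of the NOD-like family, 5 of 11 measured genes exceeded NC by 2-fold or more in PRP-MNs and 1 was lower (median 0.24). Over all genes these shares were 17.6% and 11.5%. The higher ones, Nlrp1a, Nlrp12, Naip2, Naip5 and Naip6, passed the filter only through PRP-MNs and so had to be higher there. Of the 5 genes at 1 FPKM in both libraries none was 2-fold higher. Nlrp10 was lower, and Nod1, Nod2, Nlrx1 and Nlrc5 were within 2-fold. Naip2, the receptor for a rod protein of bacterial secretion systems, was at 7.61, 2.53, 2.63 and 0.627 FPKM, highest in PRP-MNs. Naip5, a flagellin receptor, was at 4.12, 1.90, 0.975 and 0.338 FPKM, and Nlrp12 at 2.68, 0.226, 0.832 and 0.0371 FPKM. NAIP genes are close copies, and their values are uncertain where fragments were split. Nlrp10, which keratinocytes of the upper epidermis express, went the other way at 3.35, 14.5, 6.27 and 33.0 FPKM. Nlrc5, a regulator of MHC class I genes, was lowest in MNs at 5.68 FPKM, against 14.7 in PRP-MNs, 14.2 in PRP and 20.5 in NC.

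DNA sensors were the list with the highest median. All 12 measured genes of the AIM2-like receptors and other DNA sensors exceeded NC by 2-fold or more in PRP-MNs (median 4.06), 10 in PRP (median 2.45) and 8 in MNs (median 2.0), where 1 was lower. Over all genes, 17.6%, 7.78% and 15.7% were higher in these comparisons, and 7.12% were lower in MNs. Ifi208 and Ifi213 were below 1 FPKM in NC, and the other 10 reached 1 FPKM in both PRP-MNs and NC. Zbp1, a sensor of Z-form nucleic acids, was at 136, 37.7, 14.3 and 2.91 FPKM. Ifi204 was at 232, 53.4, 46.1 and 6.20 FPKM, Ifi211 at 197, 63.4, 49.1 and 7.67 FPKM, and Ifi213 at 37.8, 8.62, 1.67 and 0.611 FPKM. Each of these was highest in PRP-MNs and lowest in NC, with PRP above MNs. The Ifi genes are relatives of Aim2 and resemble each other, so their single values are uncertain where fragments were split. The difference of Aim2 itself (1.77) was above 2 of those 12 and below 10.

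Activators and regulators had 9 of 12 measured genes 2-fold or more above NC in PRP-MNs and none lower (median 2.40). Over all genes, 17.6% were higher and 11.5% lower. Gbp5, a guanylate-binding protein that promotes NLRP3 assembly, was at 19.7, 4.6, 3.08 and 0.311 FPKM. Gbp2 and Gbp3, relatives that coat bacteria and expose lipopolysaccharide to caspase 11, were at 65.3, 22.4, 13.7 and 6.01 FPKM and at 35.4, 14.4, 6.98 and 2.92 FPKM. Irf1, an interferon-induced transcription factor, was at 53.2, 12.6, 16.0 and 6.02 FPKM, and Irf8, a factor of monocytes, at 20.4, 9.75, 9.15 and 1.91 FPKM. Nek7, which bridges NLRP3 subunits, was at 27.5, 33.8, 24.5 and 32.8 FPKM and was within 2-fold in each comparison.

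Of the list of inhibitors, 3 of 9 measured ones exceeded NC by 2-fold or more in PRP-MNs and 1 was lower (median 0.56). Over all genes these shares were 17.6% and 11.5%. Trim30a, an interferon-induced restraint of NLRP3, was at 73.3, 16.7, 11.2 and 1.69 FPKM. Serpinb1a, an inhibitor of neutrophil proteases and inflammatory caspases, was at 54.7, 40.7, 46.5 and 17.6 FPKM. Card14, which is an NF-kappaB scaffold of keratinocytes rather than an inhibitor, was lower in all treated libraries, at 7.62, 16.8, 4.86 and 28.9 FPKM. Dpp9, which holds NLRP1 inactive, was at 17.8, 10.8, 16.8 and 8.56 FPKM. Between PRP-MNs and NC its difference was 0.97, just within 2-fold on the log2(FPKM + 1) scale.

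The caspase 1 substrates Il1b and Il18 were split like the members. Il1b was at 539, 20.8, 52.5 and 9.94 FPKM, a difference of 5.63 between PRP-MNs and NC, whereas Il18, which keratinocytes make at rest, was at 34.8, 76.4, 22.0 and 150 FPKM, a difference of −2.08. Il1b was thus lowest in NC and Il18 highest there. Il18bp, the soluble antagonist of interleukin 18, was at 18.9, 7.47, 3.58 and 2.02 FPKM. Il1a, an alarmin of keratinocytes, was lowest in MNs (4.17 FPKM) and between 18.8 and 27.9 FPKM elsewhere. The receptor gene Il1r1 was at 38.6, 11.8, 35.1 and 6.76 FPKM. The list also holds antagonists, receptors, Il1a and Il33. Of its 10 genes, 6 exceeded NC by 2-fold or more in PRP-MNs and 1 was lower (median 1.34), beside 17.6% and 11.5% of all genes.

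The list of other caspases was mixed. In PRP-MNs against NC, 3 of 8 were 2-fold or more higher and 1 was lower (median 0.80), beside 17.6% and 11.5% of all genes. Casp8, which can also cut gasdermins, was at 37.5, 15.8, 21.2 and 11.7 FPKM. Casp14, the caspase of cornifying keratinocytes, was at 21.7, 91.6, 30.6 and 166 FPKM, lowest in PRP-MNs. Among other gasdermins, Gsdmc was at 16.9, 38.8, 15.8 and 36.4 FPKM and Gsdmc2 at 0.613, 2.16, 0.730 and 2.80 FPKM, both lower in the libraries with microneedles. Gsdma3, a close copy of Gsdma tied to follicles and sebaceous glands, reached 3.14 FPKM in MNs and at most 0.473 FPKM elsewhere. All 6 sebaceous gland markers were also highest in MNs (summed level 2072 FPKM against 440.5 to 587 FPKM), and their part in the value of Gsdma3 was not tested. Ninj1, whose protein ruptures the membrane of dying cells after gasdermin pores open, was at 92.5, 44.7, 54.2 and 26.6 FPKM.

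**Figure D4:**
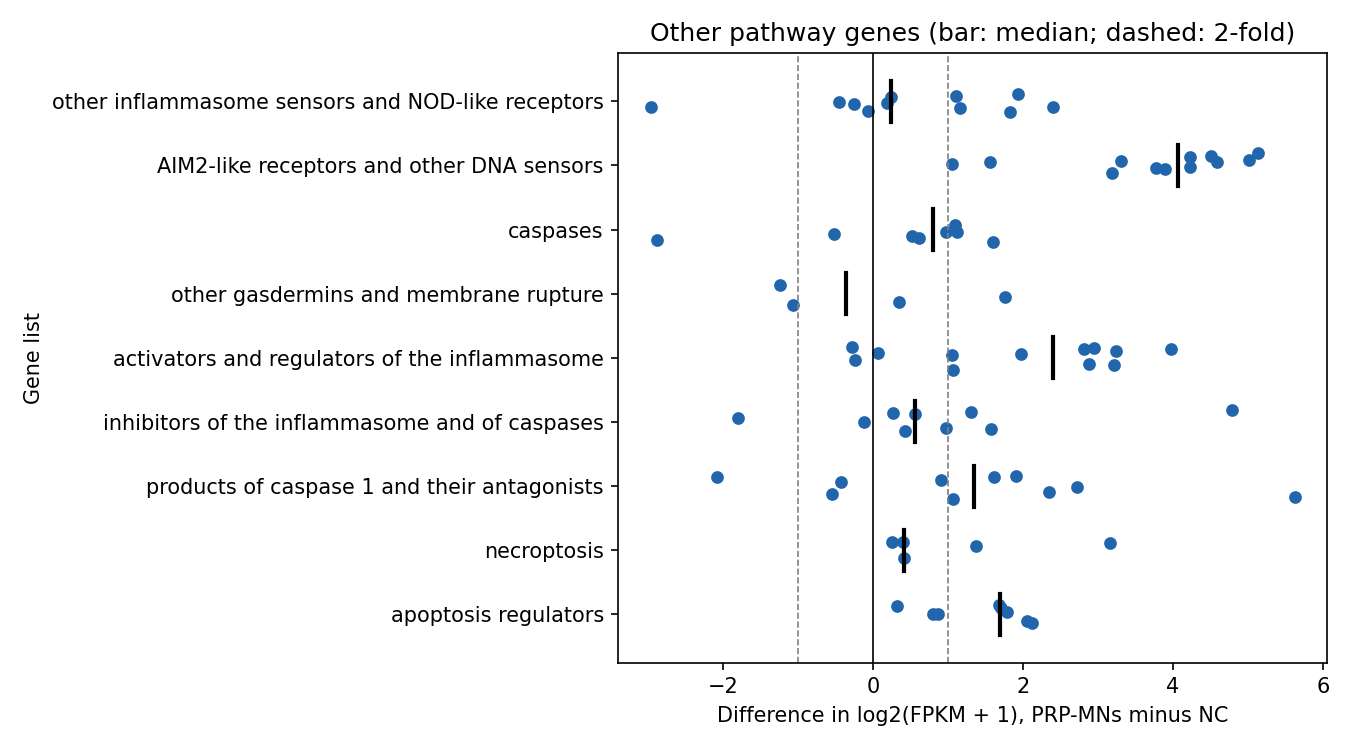
Difference in log2(FPKM + 1) between PRP-MNs and NC for measured genes of the 9 pathway lists (1 point per gene, bar at the list median, dashed lines at 2-fold). The DNA sensors all lie above 2-fold around a median of 4.06, while the other lists hold genes on both sides of 0 or within 2-fold.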

How the data were processed

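Mouse skin of 4 groups gave 1 RNA library per group, prepared with a NEBNext Ultra kit per the labels' protocols. The authors deposited 1 table of FPKM values with 1 column per library. GRCm38 is the build named, per the submitters' processing notes. Aligner, counting tool, strand use and annotation are not given in the sources used here. Coordinates and transcript lengths came from GENCODE release M21 (22022 of 22036 Ensembl identifiers matched) and promoters from RefSeq.

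FPKM values were compared as log2(FPKM + 1) for genes that reached 1 FPKM in either library, in 6 comparisons, with no test. FPKM are scaled within a library, so abundant genes can shift all others, and FPKM sums ran from 448607 to 515230. Depth was the fragment number at which the largest share of low values of genes with a single transcript lay within 0.02 of whole fragments. That share was 21.9% to 25.7%, against a median of 3.17% to 3.62% at other depths. Too few values were whole for a count test. Fragments of a member were estimated from its longest transcript. Where shorter transcripts prevail (Pycard has 493 to 3800 bases), fragments are overstated and the intervals too narrow. Calculations were tested on simulated data with Python 3.11.15, pandas 2.3.3 and SciPy 1.17.1.

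The members, lists and rules were chosen with earlier results of these data known. All members were named, and of each pathway list up to 5 genes with the largest difference from NC, with Nek7 added after its values were seen. The alternatives were a pseudocount of 0.1, no filter, a filter at 5 FPKM, libraries at the same FPKM sum with and without mitochondrial genes, and centring on the median of all genes. The 4 listed genes not found by symbol or synonym were not analysed here, and some listed genes are not reported by name.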

Additional observations from a re-analysis of the deposited data

Results flagged for a closer look

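Il1rn and Ifi202b, picked after their values were seen, differed in opposite directions with microneedles depending on PRP. Il1rn, the gene of the interleukin 1 receptor antagonist, had 67.5 FPKM in NC, 50.8 in PRP, 16.4 in MNs and 256 in PRP-MNs. MNs was below NC by −1.97 while PRP-MNs was above PRP by 2.31, a gap of 4.28 on the log2 scale. Ifi202b, an AIM2-like gene that lacks a pyrin domain, had 26.1, 16.8, 9.42 and 79.0 FPKM in the same order. MNs was below NC by −1.38 and PRP-MNs above PRP by 2.17, a gap of 3.55. With 1 library per group the gap was not tested. No other of the 80 genes of the pathway lists at 1 FPKM or more showed such opposite differences of at least 2-fold. The cell type markers were not part of that count, and 3 sebaceous ones had opposite microneedle differences without and with PRP: Far2 (3.41 and −3.36), Elovl3 (3.27 and −3.15) and Awat1 (3.35 and −2.06). The macrophage marker Mrc1 had opposite PRP differences without and with microneedles. None of the 10 members changed sign.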

How the results depend on the processing

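The directions of the members held under all 6 alternatives in each comparison where they were measured, except Aim2 between PRP and MNs (−0.03 to 0.19). Of the member differences recomputed, 283 kept their side of 2-fold and 11 crossed it. A pseudocount of 0.1 gave 4 higher members in PRP and 5 in MNs against NC and 1 lower in PRP against MNs (Nlrp3, −1.07). It brought Nlrc4 past 2-fold in PRP-MNs against NC (2.06), and gave medians of 2.33 (PRP-MNs against NC), 1.12 (PRP against NC) and 1.28 (PRP-MNs against PRP). It also brought Nlrc4 (1.30) and Aim2 (1.05) past 2-fold in PRP-MNs against PRP, and Aim2 (1.17) in PRP-MNs against MNs. A filter at 5 FPKM left 1 higher member in PRP and 1 in MNs against NC, with a median of 0.37 in PRP. In PRP-MNs against MNs the median of 0.97 became 0.72 without a filter, 0.69 at the same FPKM sum and 0.71 at the same sum without mitochondrial genes, where Nlrp1b joined the measured members. Over all genes, PRP-MNs against NC gave 2462 higher and 1607 lower, 2061 and 1933 after centring, and 2842 and 1374 at the same sum, which moved the median of all genes from 0.14 to 0.29. PRP against NC gave 1644 higher and 432 lower with a pseudocount of 0.1, in place of 1053 and 197. No paired analysis was possible because each group has 1 library. Depth limits Mefv in NC (about 3 fragments), and Nlrp1b and Nlrc4 (19 fragments each in NC).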

Other observations

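Other forms of cell death were read in 2 of the lists, beside 17.6% of all genes at least 2-fold higher and 11.5% lower in PRP-MNs against NC. Of 5 necroptosis genes, 2 were at least 2-fold higher and none lower (median 0.41): Mlkl, the pore-forming executor of necroptosis, had 2.10 FPKM in NC, 7.34 in PRP, 9.77 in MNs and 26.7 in PRP-MNs, and its kinase Ripk3 had 6.24, 7.33, 12.2 and 17.8 FPKM in that order. Ripk1, Fadd and Cyld were within 2-fold in every comparison with NC. Of 8 apoptosis regulators, 5 exceeded NC by 2-fold in PRP-MNs, none in PRP (7.78% of all genes) and 2 in MNs (15.7%), with medians of 1.69, 0.48 and 0.79. Apaf1, the scaffold of the apoptosome, had 1.70, 3.38, 5.45 and 10.7 FPKM, and Bid, which links death receptors to mitochondria, 2.18, 3.26, 6.77 and 12.3 FPKM. The effectors Bax (20.4, 32.8, 41.0 and 67.8 FPKM) and Bak1 (8.71, 16.9, 17.7 and 32.5 FPKM) were also lowest in NC and highest in PRP-MNs. Bcl2a1b, the other gene 2-fold higher in PRP-MNs (1.71), had 3.92, 6.12, 3.75 and 15.1 FPKM. Bcl2, Bcl2l1 and Mcl1 were above NC in PRP-MNs but within 2-fold in every comparison with NC.

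Markers of Langerhans and dendritic cells were split. Cd207, the langerin gene of Langerhans cells, read 23.3 FPKM in NC, 11.3 in PRP, 4.43 in MNs and 0.970 in PRP-MNs, and Epcam 89.0, 66.6, 47.4 and 13.1 FPKM. The other 4 of the 6 markers (Itgax, Flt3, Zbtb46 and Xcr1) were highest in PRP-MNs and lowest in NC, with Itgax at 4.93 and 1.25 FPKM. Of the 4 T cell genes found, 3 were highest in NC and 1, Lck, in PRP-MNs (2.13 FPKM against 1.44 in NC).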
